A study of Homo sapiens with 8 samples.

Results

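Long intergenic noncoding RNAs carrying a LINC number in the gene tables were followed through RPS6 RNA immunoprecipitation (RIP) and matched input in 4 human cancer cell lines. Of 57756 genes listed, 614 had such a name, and the members were chosen by their counts, as the 152 whose mean over the 8 libraries reached 10 estimated counts. The choice therefore used the measured counts themselves, and the numbers of members past a test are given as a description. The other 462 had a mean under 10, of which 226 were above 0 in no library and 54 reached 10 counts in at least 1 library. Just under the limit were LINC00858 with a mean of 9.86, LINC00645 with 8.98, LINC00862 with 8.84 and LINC00568 with 8.81. Just over it were LINC00310 with 10.1 and LINC00933, LINC00992 and LINC00163, each with 10.3.

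Each cell line gave 1 input library of total RNA and 1 library of RNA recovered with an antibody to RPS6, which sits in the small subunit of the ribosome. The lines were Hep3B from hepatocellular carcinoma, HCT116 from colon cancer, DU145 from prostate cancer and SW1990 from pancreatic cancer, all cultured without a named treatment. The sample titles and the study's methods give Hep3B for the first line, whereas its cell line field reads Huh7, another liver cancer line, and it is called Hep3B here. Only 1 library of each kind exists per line, so the 4 lines are the only repeats and no difference within a line has a test. No library from a control antibody was analysed here, and binding to RPS6 and unspecific recovery cannot be told apart. Values of 4 libraries are given in the order Hep3B, HCT116, DU145 and SW1990.

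The inputs held 35796200 to 54209600 fragments assigned to genes and the RIP libraries 34630300 to 42610100, as recovered from the estimated counts. At these depths 3 fragments corresponded to 0.0553 to 0.0866 CPM, or counts per 1e6. The liver marker list was met only in the Hep3B input, where 7 of 7 genes reached 1 FPKM (fragments per kilobase and per 1e6 fragments) and their sum was 15347 FPKM, against 1.30 to 17.1 FPKM in the other 3 inputs. Of the colon list, 1 of 7 genes reached 1 FPKM in HCT116, with a sum of 6.63 FPKM, below the sums of 152 FPKM in Hep3B (1 of 7 genes) and 95.3 FPKM in SW1990 (3 of 7). Of the prostate list, 1 of 6 did so in DU145, with a sum of 9.49 FPKM, against 2 of 6 in HCT116 (8.36 FPKM) and 3 of 6 in SW1990 (12.2 FPKM). These lists thus did not mark HCT116 and DU145 among the 4 lines. The pancreatic duct list reached 1 FPKM for 4 of 6 genes in SW1990 (sum 295 FPKM), and likewise for 4 of 6 in HCT116 (617 FPKM) and DU145 (418 FPKM). The blood list summed to at most 0.0911 FPKM in any input.

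LINC symbols are placeholders given to long RNAs that lie between protein-coding genes and lacked a known protein product when named. Many such RNAs remain in the nucleus, whereas others are exported and some are bound by ribosomes. NORAD, still listed as LINC00657 in the tables, is an abundant cytoplasmic RNA that binds RNA-binding proteins and supports genome stability. Some LINC transcripts were later found to encode microproteins, among them SMIM26 (LINC00493), SMIM30 (LINC00998) and mitoregulin or MTLN (LINC00116), and others serve as hosts of microRNAs or small nucleolar RNAs.

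RefSeq gave a single matching entry for 148 of the 152 members, 103 by symbol and 45 by an older name. It listed 132 as long noncoding RNAs and 16 as protein coding. The 4 without a single match were LINC00086, LINC00087, LINC00315 and LINC01165. For these, a missing entry and a name shared by several entries were not told apart. By the deposited gene coordinates (hg19), 72 members lay at a locus of their own and 80 shared a locus with at least 1 other listed gene.

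Promoter windows, 250 bases before to 50 after the start in RefSeq GRCh38.p14, are shown for 5 members around which the results turn, with each CpG in capitals. NORAD was the most abundant, SMIM26 and SMIM30 the most abundant with a protein-coding entry, LINC00863 the only member past the test as higher in every setting, and LINC00261 the strongest of those held by a single cell line.
NORAD (LINC00657), chr20:36050911-36051210, minus strand: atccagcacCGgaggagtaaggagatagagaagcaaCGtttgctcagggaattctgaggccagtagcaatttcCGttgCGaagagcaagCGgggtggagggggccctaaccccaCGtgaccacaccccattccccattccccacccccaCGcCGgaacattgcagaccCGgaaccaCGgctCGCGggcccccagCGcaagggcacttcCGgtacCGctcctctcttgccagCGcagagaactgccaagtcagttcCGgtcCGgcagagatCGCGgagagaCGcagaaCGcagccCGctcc
SMIM26 (LINC00493), chr20:18567182-18567481, plus strand: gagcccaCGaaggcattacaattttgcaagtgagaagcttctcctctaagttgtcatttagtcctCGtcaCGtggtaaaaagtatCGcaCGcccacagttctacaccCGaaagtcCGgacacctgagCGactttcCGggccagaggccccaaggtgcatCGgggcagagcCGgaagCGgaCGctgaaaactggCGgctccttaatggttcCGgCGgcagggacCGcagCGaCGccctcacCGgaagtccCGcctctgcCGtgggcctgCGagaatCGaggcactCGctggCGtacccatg
SMIM30 (LINC00998), chr7:113118505-113118804, minus strand: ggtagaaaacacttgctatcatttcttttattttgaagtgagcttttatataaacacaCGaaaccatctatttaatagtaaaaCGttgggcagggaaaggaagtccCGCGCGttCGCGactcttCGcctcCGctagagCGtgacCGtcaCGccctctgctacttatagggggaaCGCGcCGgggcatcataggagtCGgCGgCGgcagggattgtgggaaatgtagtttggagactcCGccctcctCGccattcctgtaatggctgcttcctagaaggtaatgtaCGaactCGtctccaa
LINC00863, chr10:87342486-87342785, plus strand: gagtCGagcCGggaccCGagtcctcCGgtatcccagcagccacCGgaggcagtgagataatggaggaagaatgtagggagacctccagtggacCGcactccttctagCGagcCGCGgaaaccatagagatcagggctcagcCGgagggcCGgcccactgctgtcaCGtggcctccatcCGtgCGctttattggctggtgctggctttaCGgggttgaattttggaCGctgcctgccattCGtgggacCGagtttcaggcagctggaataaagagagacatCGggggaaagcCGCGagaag
LINC00261, chr20:22578593-22578892, minus strand: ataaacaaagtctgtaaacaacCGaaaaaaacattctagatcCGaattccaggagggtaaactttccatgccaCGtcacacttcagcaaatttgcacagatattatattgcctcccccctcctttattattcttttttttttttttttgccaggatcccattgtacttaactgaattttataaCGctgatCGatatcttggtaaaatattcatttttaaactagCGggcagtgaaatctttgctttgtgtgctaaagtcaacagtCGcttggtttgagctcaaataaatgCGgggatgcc
The first 4 windows held 21 to 26 CpG and the LINC00261 window 8. A window was found for 114 members, with a median of 14 CpG and a range of 0 to 48, and the median over all 27305 windows in the table was also 14.

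In the inputs, members were mostly low. The median member had a mean input level of 1.20 FPKM, against 10.8 FPKM for the median protein-coding gene tested. 14 members reached a mean of 10 FPKM and 66 stayed under 1 FPKM. At least 3 fragments were seen in all 8 libraries for 67 members and in all 4 inputs for 101. 70 members were at 0 in at least 1 library. The counts were correspondingly small, with a median mean count of 47.4 for members and 517 for all genes tested.

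NORAD dominated the group. Its input levels were 133, 104, 173 and 216 FPKM, and its RIP levels were 50.5, 28.9, 46.1 and 91.0 FPKM. Of all fragments on members, NORAD held 36.8%, 44.2%, 48.2% and 55.2% in the inputs and 19.3%, 19.2%, 21.7% and 36.7% in the RIP libraries. The share was thus lower after RIP in 4 of 4 lines, and SW1990 had the highest share in both. Members together took 0.148%, 0.105%, 0.165% and 0.165% of all fragments in the inputs and 0.0722%, 0.0413%, 0.0620% and 0.0719% in RIP. Without NORAD these shares were 0.0938%, 0.0588%, 0.0857% and 0.0739% in the inputs and 0.0582%, 0.0334%, 0.0486% and 0.0455% in RIP, so the remaining 151 members also took less of each RIP library.

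**Figure D1:**
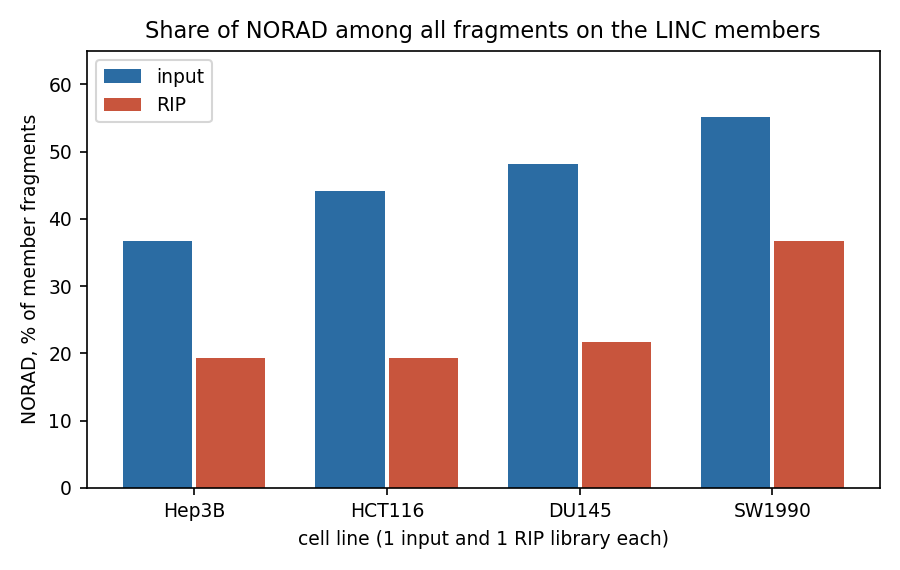
Percent of all fragments on the 152 members that fell on NORAD (vertical axis) in each cell line (horizontal axis), with 1 bar for the input and 1 for the RPS6 RIP library and no error bars because each bar is a single library. The RIP bar was lower in every line, from 36.7% in SW1990 down to 19.2% in HCT116.

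After NORAD, the 7 members with the highest mean input FPKM were LINC00493, LINC00998, LINC00338, LINC00969, LINC00152, LINC00467 and LINC00261. LINC00493 (SMIM26) was at 83.3, 48.9, 27.2 and 145 FPKM in the inputs and at 12.1, 16.3, 3.59 and 34.1 FPKM in RIP. LINC00998 (SMIM30) was at 54.0, 98.4, 39.9 and 52.2 FPKM in the inputs and at 23.1, 17.8, 9.14 and 3.77 FPKM in RIP. Its input and RIP levels did not overlap, whereas the SMIM26 level in the SW1990 RIP exceeded that in the DU145 input. LINC00338, now SNHG20, a snoRNA host gene, was at 87.4, 30.5, 19.5 and 26.5 FPKM in the inputs and at 4.48, 1.61, 1.88 and 0.503 FPKM in RIP. LINC00969 (MIR570HG), a microRNA host, was at 39.5, 12.2, 26.8 and 28.7 FPKM in the inputs and at 64.7, 15, 36.8 and 33.8 FPKM in RIP. Its levels overlapped between the groups, as did those of LINC00152 (CYTOR), a cytoskeleton-linked RNA, at 17.5 to 27.5 FPKM in the inputs and 12.2 to 22.2 FPKM in RIP. LINC00467 was at 10.2 to 31.7 FPKM in the inputs and 2.09 to 5.21 FPKM in RIP, without overlap. LINC00261 was high in Hep3B only and is described with the line-held members.

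**Figure D2:**
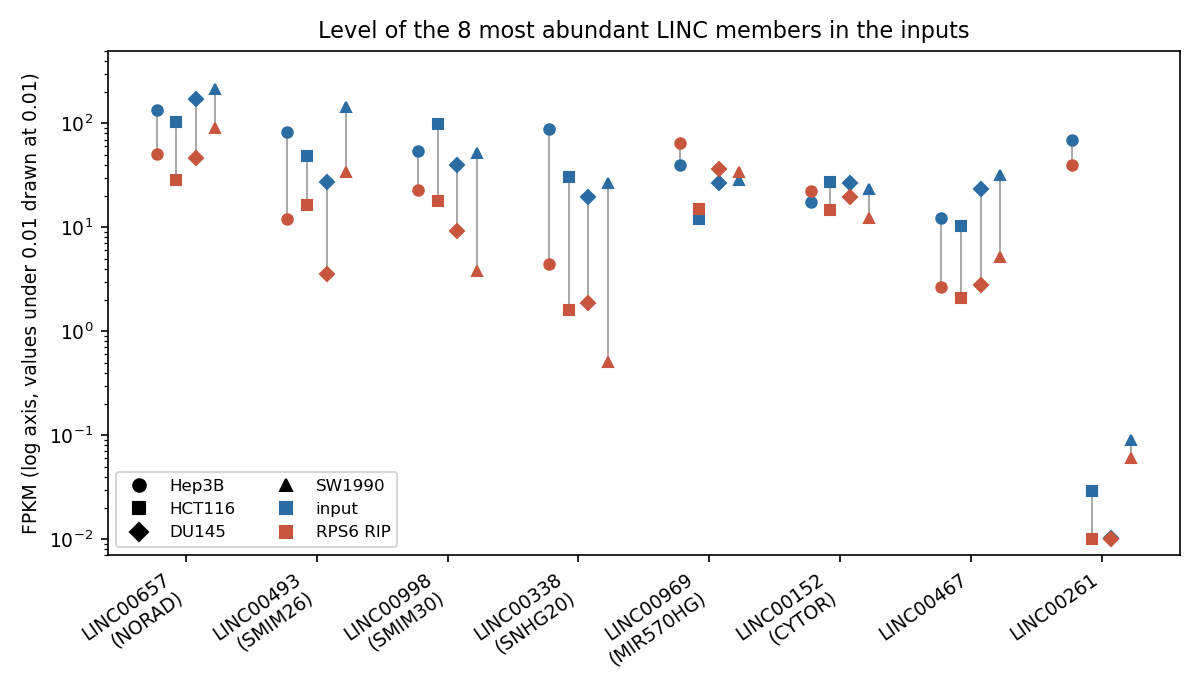
FPKM on a log axis (vertical) of the 8 members with the highest mean input level (horizontal), with a symbol per cell line, input in blue and RPS6 RIP in red, and a grey line joining the pair of each line. The RIP point lay below the input point in all 4 lines for NORAD, LINC00493, LINC00998, LINC00338 and LINC00467, and above it in all 4 lines for LINC00969.

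To ask which LINC RNAs were over- or under-represented among RPS6-associated RNA, RIP and input counts were compared over the 4 pairs with edgeR, with the cell line as a block. A value is lower or higher relative to the bulk of RNA in the same library, and CPM was taken after TMM scaling. Among the 152 members 11 were higher in RIP at an adjusted p under 0.05 (7.24%, against 26.5% of all 19910 genes tested) and 30 were lower (19.7%, against 24.9%). The other 111 did not pass. At an unadjusted p under 0.05, 13 members were higher and 37 lower. The median log2 fold change was -0.74 for members, -0.05 for all genes tested, -0.82 for 563 other RefSeq long noncoding RNAs and 0.12 for 14575 protein-coding genes. Of the other long noncoding RNAs 44 were higher (7.82%) and 162 lower (28.8%).

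Because members had few counts, the shares were also read by count. Where the mean reached 50 counts, 8 of 75 members were higher (10.7%, against 33.0% of all 15434 such genes) and 21 lower (28.0%, against 28.8%). Of the 77 with fewer counts, 3 were higher (3.90%, against 4.24% of 4476 genes) and 9 lower (11.7%, against 11.7%). The lower share thus stood near that of all genes on the same side of 50 counts, and the higher share stood below it among members with at least 50 counts. The genes with at least 50 counts have no upper limit, and members had fewer counts than most genes. These shares are therefore not matched by count. Of the 11 higher members 10 had a higher CPM in RIP in 4 of 4 lines, and of the 30 lower members 26 had a lower CPM in 4 of 4. Of the 30 lower members 4 (LINC00261, LINC00316, LINC00478 and LINC00707) were held by 1 cell line and drew nearly all fragments from 1 pair. Of the 41 called members 19 stayed past the threshold whichever line was left out, 16 lost their call without at least 1 line, and 6 fell under the count limit without 1 line and could not be tested there. Every RIP CPM lay above every input CPM for 4 of the 152 members, against 2075 of the 19910 genes tested (10.4%). Every RIP CPM lay below every input CPM for 13 of the 152, against 2432 of the 19910 (12.2%).

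**Figure D3:**
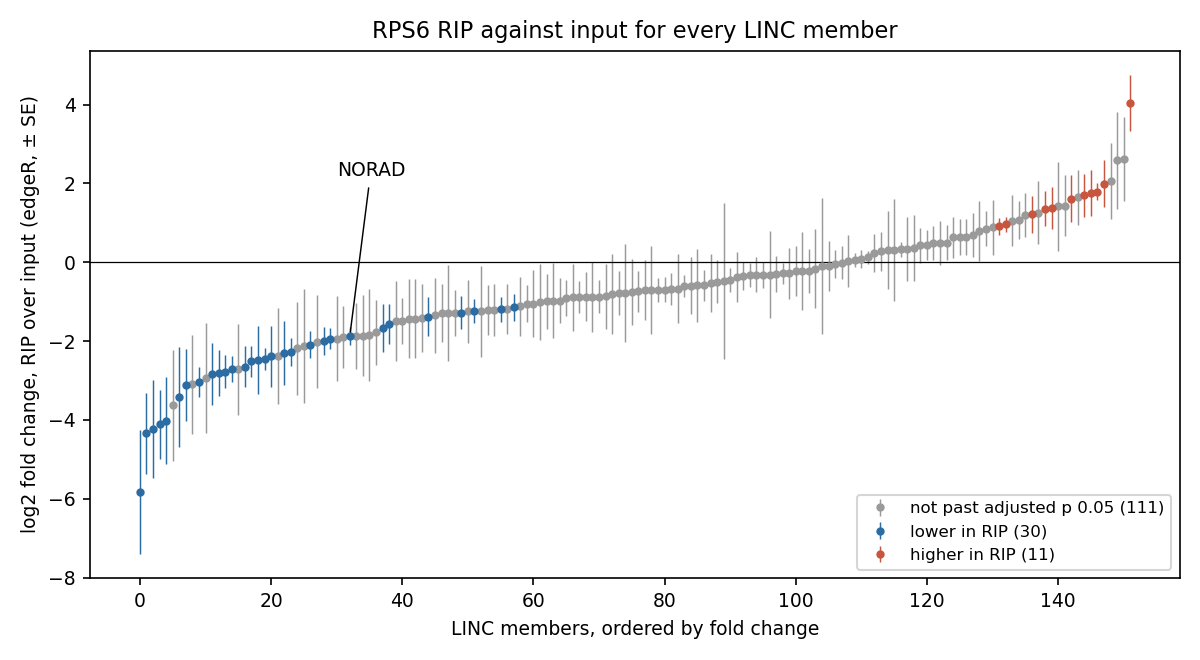
Log2 fold change of RIP over input from edgeR, with its standard error (vertical axis), for the 152 members ordered by that value (horizontal axis), coloured by the call at an adjusted p of 0.05. Most points lay under 0, with 30 lower, 11 higher and 111 not past the threshold.

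NORAD was lower in RIP in every line. Its CPM was 527, 418, 674 and 769 in the inputs and 155, 100, 147 and 280 in RIP. All 4 RIP values lay below the lowest input value. The fold change was 3.65-fold lower, at -1.87 on the log2 scale (SE 0.22, edgeR adjusted p = 5.83e-05). Within the table of Hep3B and HCT116 it was -1.97 and within that of DU145 and SW1990 -1.89. NORAD had a locus of its own, chr20:34633543-34638882 in hg19.

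Some proteins that bind NORAD were measured through their mRNAs. KHDRBS1 mRNA, for the RNA-binding protein SAM68, rose in RIP by 0.60 on the log2 scale (SE 0.19, edgeR adjusted p = 0.0243). RBMX mRNA, for a nuclear RNA-binding protein, changed by -0.82 (SE 0.22, edgeR adjusted p = 0.0102) and TOP1 mRNA, for DNA topoisomerase I, by -0.88 (SE 0.23, edgeR adjusted p = 0.00787). PUM2 mRNA, for a repressor of target mRNAs, stood at -0.53 (SE 0.21, edgeR adjusted p = 0.0603) and did not pass. These mRNAs thus did not share a direction.

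A list of RNAs described as retained in the nucleus served as a reference, although the location of these RNAs was not measured here. MALAT1, of nuclear speckles, stood at -3.04 (SE 0.37, edgeR adjusted p = 7.52e-05), and NEAT1, the scaffold of paraspeckles, at -2.93 (SE 0.30, edgeR adjusted p = 2.78e-05). TUG1, which RefSeq lists as protein coding, stood at -1.64 (SE 0.19, edgeR adjusted p = 5.49e-05), and KCNQ1OT1, an imprinted antisense RNA, at -0.09 (SE 0.28, edgeR adjusted p = 0.814). The value of NORAD lay between those of NEAT1 and TUG1. The difference between NORAD and these RNAs was not tested.

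Members that RefSeq lists as protein coding did not share a direction. Of the 16, 2 were higher and 2 lower (12.5% each, against 26.5% and 24.9% of all genes tested) and 12 did not pass, with a median log2 fold change of -0.89. Not counted among the 16 are LINC00086 and LINC00087, both called higher, which had no single RefSeq match and may also be protein coding. Of the other protein-coding genes tested 32.0% were higher and 26.3% lower. SMIM30 (LINC00998), whose product is a small membrane protein, fell from 39.2, 72.2, 26.1 and 30.5 CPM to 11.8, 10.8, 4.57 and 1.95 CPM. Its groups did not overlap, and the fold change was -2.71 (SE 0.33, edgeR adjusted p = 7.69e-05). SMIM26 (LINC00493), which encodes a small mitochondrial membrane protein, fell from 28.2, 17.1, 8.23 and 45.1 CPM to 3.76, 5.07, 1.03 and 9.68 CPM. It was lower in 4 of 4 lines, with overlap between SW1990 RIP and DU145 input, at -2.45 (SE 0.28, edgeR adjusted p = 4.74e-05). SMIM26 lay alone at its locus, chr20:18548063-18550207 in hg19, and SMIM30 shared its locus with 1 unnamed clone-based gene.

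The 2 higher members with a protein-coding entry were LINC00094 and LINC00176. LINC00094 (BRD3OS), the opposite-strand partner of the bromodomain gene BRD3, rose from 7.48, 33.3, 33.2 and 40.4 CPM to 13.1, 63.4, 56.4 and 102 CPM. The rise was seen in 4 of 4 lines although the groups overlapped, at 0.96 (SE 0.19, edgeR adjusted p = 0.00162). Its call was lost with limma (limma adjusted p = 0.0710 and 0.0763), without the block (edgeR adjusted p = 0.370) and in the Hep3B and HCT116 table alone (edgeR adjusted p = 0.102). BRD3 lies at the same locus, and how reads of overlapping genes were divided is not given in the sources used here. LINC00176 (C20orf204) stood at 1.22 (SE 0.46, edgeR adjusted p = 0.0491). Its call was lost when any cell line was left out (edgeR adjusted p = 0.0836 to 0.182).

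The 12 others ran from -1.86 for LINC00672 (LASP1NB) to 0.86 for LINC00341 (SYNE3). LINC00116, the mitoregulin gene, was at 0.925, 4.94, 5.49 and 3.88 CPM in the inputs and 1.30, 1.92, 2.60 and 1.32 CPM in RIP. It was lower in 3 lines and higher in Hep3B, at -0.91 (SE 0.46, edgeR adjusted p = 0.124), and it passed as lower only without Hep3B. LINC00961, which encodes the microprotein SPAAR, had at most 0.703 CPM in any library, and LINC00634 (SMIM45) at most 0.697 CPM. LINC00984 (INAFM2) stood at 0.50 (SE 0.44) and LINC01155 (KANTR) at 0.43 (SE 0.44). LINC00959 (C10orf143) stood at -1.78, LINC01125 (C2orf92) at -1.04, LINC00514 (GREP1) at -0.98, LINC01059 (GRAMD1B) at -0.88 and LINC00854 (CCDC200) at -0.70. None of these passed the test, and the signs of LINC00514, LINC00854, LINC00961 and LINC01155 turned under another setting.

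Of 6 members with a host gene symbol 4 were lower (66.7%, against 24.9% of all genes tested) and none higher (against 26.5%), with a median log2 fold change of -2.04. A single pair carried 1 of the 4, LINC00478, and no test of the list was made. SNHG20 (LINC00338), which shares its locus with SEC14L1 and 8 other listed genes, fell from 20.1, 6.37, 10.7 and 11.2 CPM to 6.40, 0.976, 2.53 and 0.813 CPM. Its largest RIP value, in Hep3B, lay just above the smallest input value, in HCT116. The fold change was -2.51 (SE 0.39, edgeR adjusted p = 0.000353). SNHG33 (LINC00888), at a locus with SNORA63, SNORA4 and SNORA81, fell from 4.79, 6.26, 6.67 and 18.9 CPM to 0.873, 1.71, 0.351 and 2.83 CPM without overlap, at -2.77 (SE 0.43, edgeR adjusted p = 0.000361). MIR924HG (LINC00669) was lower at -1.57 (SE 0.51, edgeR adjusted p = 0.0248), also without overlap, and its call was lost without HCT116, DU145 or SW1990 (edgeR adjusted p = 0.0753 to 0.108).

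MIR99AHG (LINC00478) was measured almost only in Hep3B, at 6.29 CPM in the input and 0.265 CPM in RIP, so its fold change of -4.22 described that pair, and it was not past the threshold in DESeq2 (-1.70, DESeq2 adjusted p = 0.709) or limma. MIR570HG (LINC00969) was at 71.7, 18.1, 44.3 and 33.3 CPM in the inputs and 78.5, 19.3, 51.9 and 34.2 CPM in RIP. It was higher in 4 of 4 lines by little, at 0.12 (SE 0.17, edgeR adjusted p = 0.581). MIR9-3HG (LINC00925) was seen only in DU145, at 1.46 CPM in the input and 1.87 CPM in RIP. For the hosts that a single line held, the mature microRNAs with names ending in 5p are printed, with the seed, bases 2 to 8, in capitals. They show which small RNAs these loci give rise to, and the 3p forms of the same loci are left out. The libraries measured the long host RNA and not these mature forms.
hsa-miR-99a-5p: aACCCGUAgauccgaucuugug
hsa-let-7c-5p: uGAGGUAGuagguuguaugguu
hsa-miR-125b-5p: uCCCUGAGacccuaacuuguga
hsa-miR-9-5p: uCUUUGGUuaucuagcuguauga
The first 3 come from the MIR99AHG locus and the last from that of MIR9-3HG, and no pair of the 4 shares a seed.

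Antisense, divergent and opposite-strand members numbered 13, of which 2 were higher (15.4%, against 26.5% of all genes tested) and 3 lower (23.1%, against 24.9%), with a median log2 fold change of -0.97. PRDM16-DT (LINC00982), divergent to the zinc finger gene PRDM16, rose from 2.64, 1.21, 0.0232 and 0.0467 CPM to 6.72, 2.87, 0.187 and 0.720 CPM. It was higher in 4 of 4 lines, with most of its fragments in Hep3B and HCT116, at 2.0 (SE 0.60, edgeR adjusted p = 0.0169), and without SW1990 the edgeR adjusted p was 0.0508. ZNF407-AS1 (LINC00909) fell from 11.7, 11.8, 8.20 and 15.4 CPM to 1.61, 5.01, 2.23 and 2.90 CPM without overlap, at -2.09 (SE 0.34, edgeR adjusted p = 0.000497). SLC44A3-AS1 (LINC01057) stood at -1.38 (SE 0.50, edgeR adjusted p = 0.0396) and ERCC6L2-AS1 (LINC00476) at -1.28 (SE 0.41, edgeR adjusted p = 0.0250). The calls of these 2 were lost without HCT116, DU145 or SW1990 (edgeR adjusted p = 0.0760 to 0.131).

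LINC00863 was at 6.66, 5.67, 6.26 and 7.87 CPM in the inputs and at 21.2, 20.2, 20.1 and 31.5 CPM in RIP. The groups were far apart, and the fold change was 3.47-fold, 1.8 on the log2 scale (SE 0.21, edgeR adjusted p = 6.65e-05). LINC00863 shares its locus, chr10:89102492-89130452 in hg19, with NUTM2D, a member of a family of similar genes, and its fragments are therefore uncertain between them.

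LINC00273 had the largest rise but few fragments. Its CPM was 0.0529, 0.0537, 0.185 and 0.0234 in the inputs and 0.635, 0.515, 5.79 and 0.441 in RIP. The groups did not overlap, the DU145 RIP value stood apart, and the fold change was 4.05 (SE 0.71, edgeR adjusted p = 0.000819). In Hep3B, HCT116 and SW1990 the input lay under the level of 3 fragments. LINC00273 shared its locus with another listed gene. Its call was lost with limma on FPKM + 1 (limma adjusted p = 0.0589) and in the Hep3B and HCT116 table alone (edgeR adjusted p = 0.0864). The call stayed in the other settings that tested it. LINC01128, at a locus of its own, rose from 7.11, 14.8, 14.6 and 17.0 CPM to 19.6, 23.4, 25.7 and 28.6 CPM without overlap, at 0.92 (SE 0.22, edgeR adjusted p = 0.00500). LINC00638 (VESTAR) rose without overlap as well, from 0.913 to 1.53 CPM in the inputs to 1.97 to 7.33 CPM in RIP, at 1.36 (SE 0.44, edgeR adjusted p = 0.0239), but its call was lost without Hep3B (edgeR adjusted p = 0.101) or HCT116 (edgeR adjusted p = 0.0510).

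The other higher members were low in level. LINC00086 and LINC00087, which the files describe as genes for small integral membrane protein 10 like proteins, stood at 1.70 and 1.75, LINC00319 at 1.62 and LINC00431 at 1.38. The similar descriptions of LINC00086 and LINC00087 raise a sharing of reads between them, which was not tested. The call of LINC00319 was lost without any of the lines (edgeR adjusted p = 0.0904 to 0.139) and that of LINC00431 without HCT116, DU145 or SW1990 (edgeR adjusted p = 0.117 to 0.201). LINC00086 lost its call without HCT116 or SW1990 (edgeR adjusted p = 0.134 for each), and LINC00087 without HCT116 (edgeR adjusted p = 0.167) or DU145 (edgeR adjusted p = 0.0892).

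Among lower members with even values, LINC00467 went from 4.20, 5.16, 7.0 and 9.62 CPM to 0.609, 0.515, 0.890 and 1.11 CPM. Every RIP value was under every input value, at -3.04 (SE 0.37, edgeR adjusted p = 8.41e-05). LINC00641 went from 16.6, 19.9, 26.0 and 12.5 CPM to 2.73, 7.43, 7.10 and 3.39 CPM, also without overlap, at -1.94 (SE 0.26, edgeR adjusted p = 0.000156). LINC00938 showed the same pattern, from 3.52 to 17.8 CPM in the inputs to 1.87 to 3.23 CPM in RIP, at -1.99 (SE 0.36, edgeR adjusted p = 0.000987). OLMALINC (LINC00263) was lower in 4 of 4 lines with overlap, from 11, 30.6, 23.1 and 9.67 CPM to 3.10, 13.2, 2.55 and 1.23 CPM, at -2.28 (SE 0.36, edgeR adjusted p = 0.000397).

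Steep falls were also seen in members of low level. LINC00685 went from 0.555, 0.349, 1.23 and 0.327 CPM to 0, 0, 0.0703 and 0.0464 CPM. LINC00920 went from 0.212, 1.67, 0.371 and 3.46 CPM to 0, 0.0542, 0 and 0.534 CPM. LINC01024 (MALINC1), LINC00471 and LINC00115 were lower in 4 of 4 lines too, with input values of 0.322 to 3.06 CPM. Their RIP values were 0 to 0.534 CPM, several under the level of 3 fragments, and their fitted folds are no precise size. The call of LINC00471 was lost without HCT116, DU145 or SW1990 (edgeR adjusted p = 0.0708 to 0.139), and LINC00685 could not be tested without DU145, where its mean fell under 10 counts.

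The remaining lower members were LINC00886, LINC01011, LINC00680, DUBR (LINC00883), PURPL (LINC01021), LINC00491, LINC00648 and LINC00941, with log2 fold changes from -3.11 to -1.19. PURPL, a p53-regulated RNA, and LINC00491 had most of their fragments in Hep3B and HCT116, and LINC00648 in DU145. Without Hep3B the first 2 fell under a mean of 10 counts and were not tested, as was LINC00648 without DU145. Calls were lost for PURPL without HCT116, DU145 or SW1990 (edgeR adjusted p = 0.0575 to 0.126), for LINC00491 without HCT116 (edgeR adjusted p = 0.0538), for LINC01011 without HCT116 or SW1990 (edgeR adjusted p = 0.0703 and 0.0954) and for DUBR without SW1990 (edgeR adjusted p = 0.0757).

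**Figure D4:**
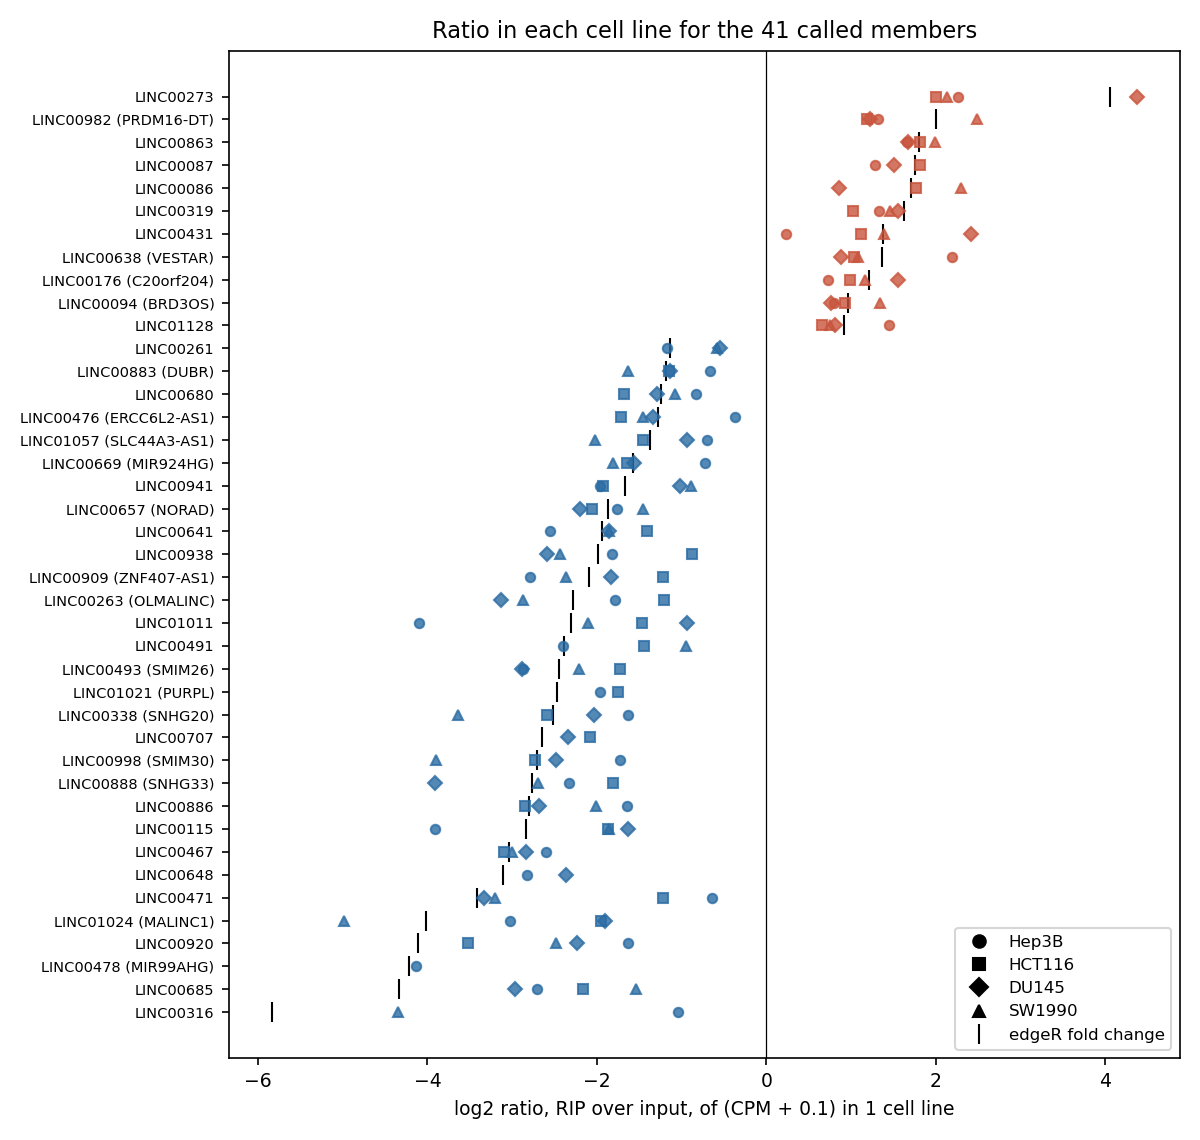
Log2 ratio of RIP over input on CPM with 0.1 added (horizontal axis) in each cell line for the 41 members past the threshold (vertical axis), with symbols for lines with at least 3 fragments in 1 of the pair and a tick for the edgeR fold change. All symbols of higher members lay right of 0 and all of lower members left of 0, while members low in level, such as LINC00316, had few symbols.

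Of 15 listed LINC RNAs known from cancer studies 11 were members, of which 4 were lower (36.4%, against 24.9% of all genes tested) and none higher (against 26.5%), with a median log2 fold change of -0.88. The counts of LINC00261 and LINC00707 came almost wholly from a single line. The lower ones were LINC00261, LINC00467, LINC00707 and LINC00941, the last at -1.67 (SE 0.60, edgeR adjusted p = 0.0390). LINC00941 lost its call without HCT116, DU145 or SW1990 (edgeR adjusted p = 0.0529 to 0.142). CYTOR (LINC00152) was at 8.35, 11.6, 12.3 and 9.60 CPM in the inputs and 10.1, 7.70, 10.5 and 6.48 CPM in RIP, at -0.28 (SE 0.26, edgeR adjusted p = 0.396). LINC00857 was higher in 4 of 4 lines by 0.33 (SE 0.20, edgeR adjusted p = 0.195), without passing. LINC00963 stood at 0.05, LINC00511 at 0.09, LINC00665 at -0.88, LINC00472 at -0.88 and LINC00460 at -1.21, none past the test.

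Several members belonged to a single cell line. Called held were those whose highest input level exceeded the next by at least 8-fold on FPKM with 0.1 added, and 11 members met this (7.24%, against 5.67% of all genes tested). The number depended on the limits, with 3 members when 1 was added to FPKM and 20 at 4-fold. Hep3B held 3 members and 582 of all genes, HCT116 held 2 and 165, DU145 held 4 and 230, and SW1990 held 2 and 151. The levels of Hep3B and HCT116 came from another table than those of DU145 and SW1990, and the tables were taken as scaled separately. With 1 input per line these levels have no test.

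LINC00261, an RNA next to the endoderm regulator FOXA2, was at 69.6 FPKM in the Hep3B input and at 0.0290, 0.0102 and 0.0898 FPKM in the other inputs. In RIP it was at 39.6 FPKM in Hep3B, at 0 in HCT116 and DU145 and at 0.0604 FPKM in SW1990. It counted among the lower members at -1.14, but this describes the Hep3B pair alone, at 291 and 129 CPM, with no repeat, and it was not past the threshold in limma (limma adjusted p = 0.403 and 0.456). It is the only one of the 8 most abundant members that was nearly absent from 3 lines. MIR99AHG was at 8.64 FPKM and LINC01091 at 1.85 FPKM in the Hep3B input.

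LINC00707 was at 28.4 FPKM in the DU145 input, at 0 in Hep3B and at no more than 0.101 FPKM in the other 2. In DU145 it went from 84.2 to 16.5 CPM between input and RIP. It counted among the lower members at -2.65, but this describes 1 pair with no repeat, and it was not past the threshold in DESeq2 (DESeq2 adjusted p = 0.171) or limma (limma adjusted p = 0.149 and 0.225). LINC01059 was at 8.50 FPKM, LINC01060 at 3.09 FPKM and MIR9-3HG at 1.67 FPKM in the DU145 input. HCT116 held LINC00470 at 5.62 FPKM and LINC00839 at 3.05 FPKM, the latter listed at 0 in the other 3 inputs. SW1990 held LINC00316 at 9.25 FPKM and TUSC8 (LINC01071) at 3.35 FPKM. LINC00316 went from 2.41 CPM in the SW1990 input to 0.0232 CPM in RIP, and its fitted fold change of -5.83 described that pair and was not past the threshold in DESeq2 (DESeq2 adjusted p = 0.351) or limma.

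Of the 11 held members 7 were held by the same line among the RIP libraries. Those lost were LINC01091, LINC00470, LINC01059 and LINC00316. LINC00470 fell from 5.62 FPKM in the HCT116 input to 0.235 FPKM in its RIP, at about the Hep3B RIP level of 0.279 FPKM. Promoter windows were found for 7 of the 11, with a median of 6 CpG and a range of 4 to 13, against a median of 16 for the 107 windows of the other members. The median was 18.5 for the 80 with at least 3 fragments in all 4 inputs. The letters TATAAA, on either strand, stood in 4 of the 7 windows, in 12 of all 114 member windows (10.5%) and in 12% of all windows in the table. These counts are a description of a few windows.

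**Figure D5:**
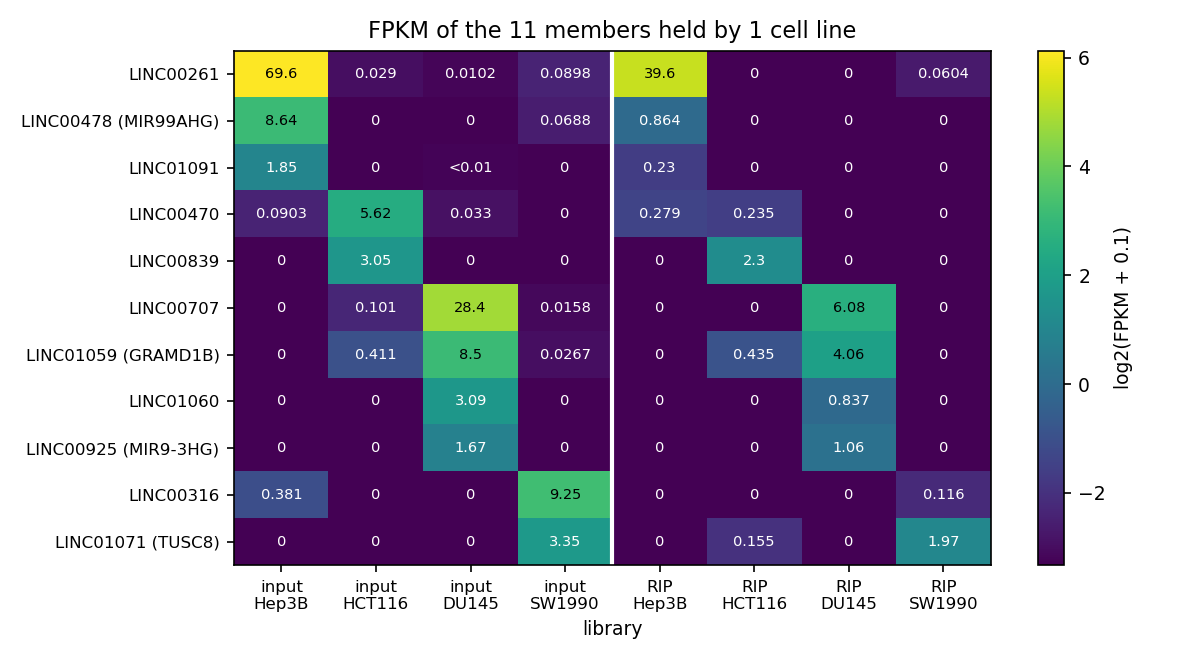
FPKM (printed in each cell, colour on a log2 scale with 0.1 added) of the 11 line-held members (vertical axis) in the 4 inputs and 4 RIP libraries (horizontal axis). Each row is bright in a single input, LINC00261 in Hep3B at 69.6 being the brightest, and LINC00316 at 0.116 in the SW1990 RIP had lost most of its level.

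The pairs were also read line by line, as the log2 ratio of RIP over input on FPKM with 1 added. In all 4 lines 19 members were higher (12.5%, against 30.8% of all genes tested) and 37 lower (24.3%, against 23.6%), and 96 were mixed or unchanged in a line. The median ratio of members was 0, -0.04, -0.06 and -0.11 in the usual order of lines. Adding 1 draws ratios at low levels toward 0, and with 0.1 added the member medians were 0, -0.24, -0.16 and -0.35. With 1 added, the median for all genes tested was 0.08, 0.01, 0.04 and 0.00, and for the other long noncoding RNAs -0.16, -0.13, -0.16 and -0.22. Members and these other genes differ in level, so their medians are not directly comparable. Single members ranged from -4.20 to 1.75 in SW1990 and from -2.83 to 2.02 in DU145.

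The ratio differed most between lines for LINC00482, LINC00707 and LINC00674, among members with a mean of at least 50 counts. LINC00707 stood at -2.05 in DU145 and at 0, -0.14 and -0.02 in Hep3B, HCT116 and SW1990. In these lines it was at or near 0 FPKM in input and RIP, so its ratios there say nothing on recovery. LINC00482 was at 0.820, 3.65, 1.32 and 0.257 CPM in the inputs and at 0.476, 17.9, 1.55 and 0.255 CPM in RIP. Only in HCT116 was the RIP value far above the input, at a log2 ratio of 2.09. Over the 4 lines its fold change was 0.50 (SE 0.55, edgeR adjusted p = 0.483), and without HCT116 it was -0.18. LINC00674 was lower in RIP in Hep3B, HCT116 and DU145 on CPM and higher in SW1990, at -0.78 (SE 0.56, edgeR adjusted p = 0.275).

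Some members have near-identical promoter windows. Whether their transcripts are also alike, so that fragments could be divided between them, was not tested. LINC01123 and LINC01106, on chromosome 2, are shown because their promoter windows were the same in 289 of 289 aligned bases. The capitals mark the ends that the windows do not share.
LINC01123, chr2:109986730-109987029, plus strand: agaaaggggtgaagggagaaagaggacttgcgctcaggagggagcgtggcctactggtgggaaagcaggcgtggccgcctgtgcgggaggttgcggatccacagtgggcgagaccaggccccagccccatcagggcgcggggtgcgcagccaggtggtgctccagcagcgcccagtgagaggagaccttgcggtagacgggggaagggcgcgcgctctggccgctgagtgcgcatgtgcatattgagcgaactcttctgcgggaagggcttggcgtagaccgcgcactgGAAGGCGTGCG
LINC01106, chr2:110384487-110384786, minus strand: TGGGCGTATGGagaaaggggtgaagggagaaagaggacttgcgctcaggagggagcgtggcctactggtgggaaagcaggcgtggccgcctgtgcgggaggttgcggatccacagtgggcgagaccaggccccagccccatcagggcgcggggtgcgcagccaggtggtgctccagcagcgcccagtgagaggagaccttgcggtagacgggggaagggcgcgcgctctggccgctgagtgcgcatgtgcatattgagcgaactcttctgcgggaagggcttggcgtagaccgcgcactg
LINC01123 was at 0.370, 13.7, 9.02 and 24.1 CPM in the inputs and at 0.132, 13.9, 3.54 and 17.6 CPM in RIP. LINC01106 was at 0.132, 10.1, 8.18 and 19.8 CPM in the inputs and at 0, 10.4, 2.79 and 12.3 CPM in RIP. Both were lowest in Hep3B and highest in SW1990, and neither passed the test, at -0.69 (edgeR adjusted p = 0.0900) and -0.87 (edgeR adjusted p = 0.109).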

How the data were processed

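RNA from RPS6 RIP and input of 4 cell lines was sequenced from stranded total RNA libraries, on an instrument named differently in the study's methods and in the series record. Per the labels and the methods, the authors aligned reads to hg19 with TopHat, and the submitters' processing notes name TopHat2 2.0.9 and CASAVA 1.8; the counter, its version and its annotation are not given in the sources used here. The authors deposited FPKM values and estimated counts scaled by a factor per library, in 2 tables of 2 cell lines each. The deposited comparisons of each RIP with its input (folds, p-values, q-values) were not used. Division of each library's estimated counts by their most frequent step gave fragments, after which 78.0% to 91.8% of values were whole to within 0.01; totals of these give the depth, and floors of 3 fragments cover counting error only.

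The members and lists were chosen with earlier results of these data known. Estimated counts were rounded and tested with edgeR 4.0.16 (R 4.3.3, TMM, quasi-likelihood, Benjamini-Hochberg over all 19910 genes with a mean of at least 10) with the cell line as a block, since each RIP came from the line of its input. Deviations of a RIP library correlated with its own input at 0.84 to 0.89 and with another input at -0.04 at most. Each RIP was compared with an input of its own table, and the p-values measure the spread between 4 lines. SE is the absolute log2 fold change over the square root of F. limma 3.58.1 on log2 FPKM, DESeq2 1.42.0 and fits without the block, without each line, within each table and on recovered fragments were alternatives, the last 2 chosen after seeing the data. On simulated counts for this comparison over 19910 genes, edgeR recovered 35 of 97 genes with a log2 change of 1 and 74 of 97 with 2, with 6 false calls. The changed genes were few and drawn from all genes, whereas 26.5% of real genes were called higher and 24.9% lower. Members also had fewer counts than most genes, so these rates do not give the recovery for members. Named were NORAD, all members with a protein-coding entry, the 6 highest and 6 lowest called in 1 direction in all lines, the 8 highest in input FPKM, up to 3 held by each line, the 3 most variable ratios with at least 50 counts and those beside the limit of 10. Members named outside this rule (the other called members, list members and those with near-identical windows) were chosen after their values were seen. A gene of the list of NORAD partners is not reported here. Loci and RefSeq windows come from different builds and were not joined by position. A gene whose level is set beside another's is given in FPKM. Python 3.11.15 with pandas 2.3.3 was used for the summaries.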

Additional observations from a re-analysis of the deposited data

Results flagged for a closer look

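Among 43 members chosen by rule, 30 had at least 3 fragments in 1 library of every pair, and their 4 log2 ratios of RIP over input (FPKM with 1 added) were searched for a cell line far from the other 3. Such a gap arises by chance in about 1 of 20 groups, and 2 of 30 showed it. LINC00273 had a log2 ratio of 2.02 in DU145, against 0.35 in Hep3B, 0.31 in HCT116 and 0.35 in SW1990. The 1 added to FPKM draws ratios at low levels toward 0, and this gap depends on it. The edgeR log2 fold change of LINC00273 was 4.05 over all lines and still 3.56 without DU145, so its rise was not confined to DU145. LINC00863 had a log2 ratio of 1.75 in SW1990, against 1.43, 1.44 and 1.42 in Hep3B, HCT116 and DU145, so its rise was present in all 4 and larger in SW1990.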

How the results depend on the processing

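NORAD kept its direction and stayed past the threshold under all alternatives run, from -2.01 to -1.58 on the log2 scale (without 1 cell line, -2.01 to -1.76). Called in every setting that tested them were 6 members, LINC00863 as higher and LINC00467, LINC00641, LINC00657, LINC00909 and LINC00998 as lower. Without the replicate block, in which the cell line is ignored, members higher fell from 11 to 2, members lower from 30 to 6 and protein-coding entries called from 4 to 1. With limma on FPKM + 1 there were 6 higher and 2 protein-coding entries called, and on FPKM + 0.1 also 2 of the latter. Without 1 cell line 5 to 9 were higher, 21 to 30 lower and 3 to 4 protein-coding entries called. In the table of Hep3B and HCT116 alone 1 was higher, 16 lower and 2 protein-coding entries called, and in that of DU145 and SW1990 alone 3 were higher. At a locus of their own 5 were higher, 14 lower and 1 a protein-coding entry, of 72 members in place of 152. Members held by 1 line were 3 with FPKM + 1, 20 at 4-fold and 14 to 17 without 1 line. With 1 direction in all 4 lines were 35 of the 75 with at least 50 counts, in place of 56 of 152. Centred on protein-coding genes, 78 of the 152 had 1 direction.

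The median ratio of members centred on protein-coding genes was -0.19 for Hep3B, with -0.13 for HCT116, -0.16 for DU145 and -0.20 for SW1990. With FPKM + 0.1 the last 3 were -0.24, -0.16 and -0.35, and with at least 50 counts -0.13, -0.11 and -0.17. The sign turned, none past the threshold, for LINC00482 without HCT116 (-0.18, and up to 0.88 without another line), LINC00514 without the block (0.20) and with limma at + 1 (0.012), LINC00961 without the block (0.075), with limma at + 1 (0.025) and in DU145 and SW1990 alone (0.28), LINC00854 with limma at + 1 (0.059), at + 0.1 (0.11), without HCT116 (0.24, and down to -1.77 without another line) and in DU145 and SW1990 alone (0.16), LINC01155 in DU145 and SW1990 alone (-0.15), and LINC01071 with DESeq2 (0.51) and limma at + 0.1 (0.15). For members at 0 in several libraries depth limits what can be seen. The cause of these changes was not tested.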

Other observations

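The promoter windows of LINC01001 and LINC01002 were the same in 230 of 233 aligned bases, and LINC01138 and LINC00869 shared 82 of 82. LINC01001 was at 6.40, 5.72, 8.83 and 8.34 CPM in the inputs and LINC01002 at 0.687, 0.672, 1.60 and 1.49 CPM, in the order Hep3B, HCT116, DU145 and SW1990. None of these 4 passed the RIP test.

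The log2 ratio of RIP over input was higher on FPKM than on estimated counts, by a median of 0.255, 0.136, 0.147 and 0.114 over all genes in the same order, and by 0.263, 0.165, 0.172 and 0.0950 over members. For SNHG20 the order was the other way, since its FPKM in Hep3B went from 87.4 to 4.48 while its CPM went from 20.1 to 6.40.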
